A study of Mus musculus with 2 samples.

Results

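Interferon-high tumour cells are described here in tumours of MC38, a mouse line of colon carcinoma, that grew in the flank of C57BL/6 mice. Tumour cells were barcodes with at least 200 genes, at least 5000 UMIs (molecule tags, so that each UMI stands for 1 RNA molecule caught from a cell), at most 20% mitochondrial UMIs, no UMI of the leukocyte gene Ptprc, at most 5 UMIs of the myeloid gene Tyrobp, at most 1 of the endothelial gene Pecam1, and at least 3 UMIs in all of Igf2bp2, Igf2bp3, Hmga2 and Tnfrsf12a, genes that mark the MC38 line. Of the 16508 barcodes in both libraries, 5924 passed, 2659 in the SHP099 library and 3265 in the control library. The interferon-high cells were selected on the measured share of UMIs that Ifit1, Ifit3 and Rsad2 took, as the top 10% over both libraries together. They numbered 592 cells, 358 from the SHP099 library and 234 from the control library, and were set against the 2301 and 3031 other tumour cells.

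The SHP099 library came from mice given 5 mg/kg of SHP099 into the stomach every day, and the control library from mice given PBS, which the labels also call untreated. SHP099 is an allosteric inhibitor of SHP2, the phosphatase of the gene Ptpn11, which links growth factor receptors to RAS and ERK. Treatment began 5 days after the injection, at a mean tumour size of 100 mm3, and went on for 14 days in 6 mice per group. There was 1 library per group, and the labels do not say from how many tumours. No difference below therefore has a replicate check, no test was run, and treatment and library cannot be told apart. All tumours descend from 1 injected cell line, the host's immune system was intact, and no sorting step is named.

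Cells that sense interferon switch on a common programme. Type I interferons bind the receptor made of IFNAR1 and IFNAR2, whose kinases JAK1 and TYK2 activate STAT proteins, and a complex of these with IRF9 binds interferon-stimulated response elements in promoters. Interferon-gamma, made by T and NK cells, acts through another receptor and gamma-activated elements, and induces GTPases, chemokines and antigen presentation. Ifit1 and Ifit3 encode proteins that bind foreign RNA, and Rsad2 encodes viperin, an antiviral enzyme; in tumour cells the same programme can follow interferon from neighbouring cells or the sensing of nucleic acids within the cell.

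The 3 selecting genes lie on 2 chromosomes in the GENCODE M21 annotation of GRCm38, Ifit1 at chr19:34640871-34650009 and Ifit3 at chr19:34583531-34588731, both on the plus strand, and Rsad2 at chr12:26442746-26456452 on the minus strand. Their promoters are shown with those of Isg15, which encodes a ubiquitin-like protein, and Cxcl10, which encodes a chemokine for T cells, because all 5 hold the core of the response element. The sequences are the 250 bases before the RefSeq gene start, 5′ to 3′ on the gene's own strand, on GRCm38.p6. Capitals mark matches to GAAANNGAAA on either strand (TTTCNNTTTC on the opposite one), where N is any base.
Ifit1 (chr19:34640639-34640888, plus strand): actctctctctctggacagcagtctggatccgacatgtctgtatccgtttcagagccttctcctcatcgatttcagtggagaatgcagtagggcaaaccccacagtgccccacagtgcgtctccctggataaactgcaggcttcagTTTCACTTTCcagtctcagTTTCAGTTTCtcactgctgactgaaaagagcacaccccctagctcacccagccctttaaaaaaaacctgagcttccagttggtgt
Ifit3 (chr19:34583279-34583528, plus strand): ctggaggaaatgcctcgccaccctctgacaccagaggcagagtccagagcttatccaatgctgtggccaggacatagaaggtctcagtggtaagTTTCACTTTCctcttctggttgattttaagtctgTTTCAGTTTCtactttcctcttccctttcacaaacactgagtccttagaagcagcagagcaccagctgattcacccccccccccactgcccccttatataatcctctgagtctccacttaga
Rsad2 (chr12:26456453-26456702, minus strand): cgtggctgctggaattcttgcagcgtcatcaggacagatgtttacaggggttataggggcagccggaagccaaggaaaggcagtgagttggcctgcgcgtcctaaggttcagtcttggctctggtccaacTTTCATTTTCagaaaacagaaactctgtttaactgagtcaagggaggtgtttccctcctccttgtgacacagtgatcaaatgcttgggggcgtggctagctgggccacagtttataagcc
Isg15 (chr4:156200819-156201068, minus strand): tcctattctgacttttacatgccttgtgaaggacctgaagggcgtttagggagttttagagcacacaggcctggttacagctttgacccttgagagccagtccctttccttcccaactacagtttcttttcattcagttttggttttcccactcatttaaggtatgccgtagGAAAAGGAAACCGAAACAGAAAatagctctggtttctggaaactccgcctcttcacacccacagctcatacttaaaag
Cxcl10 (chr5:92348890-92349139, minus strand): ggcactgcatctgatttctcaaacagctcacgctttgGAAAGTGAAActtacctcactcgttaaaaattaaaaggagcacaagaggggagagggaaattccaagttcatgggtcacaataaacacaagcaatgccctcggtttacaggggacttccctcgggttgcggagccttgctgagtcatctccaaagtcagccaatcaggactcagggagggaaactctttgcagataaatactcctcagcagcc
Ifit1 and Ifit3 each held 2 matches, Rsad2 and Cxcl10 held 1, and Isg15 held 3 that overlap in a run. The matches began 104 and 85 bases before the start of Ifit1, 156 and 122 bases before that of Ifit3, 120 before that of Rsad2, 78, 72 and 66 before that of Isg15, and 213 before that of Cxcl10. A match is a run of letters and was not tested as a binding site.

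Every one of the 592 interferon-high cells held Ifit1, 13 lacked Rsad2 and 35 lacked Ifit3, and 544 (91.9%) held all 3 genes. These values chose the cells and are given as a description. Levels are in CPM, the UMIs of a gene as a share of all UMIs, scaled to the usual fixed total, either summed over a group of cells or, where said, in a single cell. Rsad2 stood at 644 CPM in the interferon-high cells against 52.0 CPM in the other tumour cells of the SHP099 library, and at 605 against 51.4 CPM in the control library. Ifit1 stood at 640 against 69.3 CPM in the SHP099 library and 576 against 50.7 CPM in the control library. Ifit3 stood at 297 against 44.3 CPM and 282 against 38.2 CPM. Rsad2 and Ifit1 thus carried most of the selecting UMIs, and the top 10% by Ifit1 alone shared 78.4% of its cells with the group, that by Rsad2 alone 71.3% and that by Ifit3 alone 61.8%. The lowest interferon-high cell held 15 of these UMIs among 20675 (726 CPM) and the highest other cell 32 among 44121 (725 CPM). No gap separated them, as 162 cells, 76 inside and 86 outside, lay within 10% of the limit, and 40 interferon-high cells held under 10 of these UMIs. The group is therefore a range of a continuous measure and not a cell type of its own.

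The interferon-high share was larger in the SHP099 library. There 13.5% of tumour cells belonged to it (exact 95% binomial bounds 12.2 and 14.8%), and in the control library 7.17% (bounds 6.31 and 8.11%). The first share was 1.88 times the second, with bounds of 1.59 and 2.22. All intervals given here cover counting error only. The libraries were apart over much of the range, not only at the limit. Cells in which the selecting genes summed to 200 CPM or more were 43.9% of tumour cells in the SHP099 library and 34.3% in the control library, those at 1000 or more 8.39% and 4.38%, and those at 4000 or more 0.865% and 0.276%, the last from 23 and 9 cells. The highest cell reached 13613 CPM in the SHP099 library and 6616 CPM in the control library. The other tumour cells held fewer UMIs in the SHP099 library, with a median of 24001 against 26853, while interferon-high cells held 19075 and 19141.5. After each cell was thinned to 5000 UMIs the group held 344 SHP099 and 248 control cells, a ratio of the shares of 1.70.

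**Figure D1:**
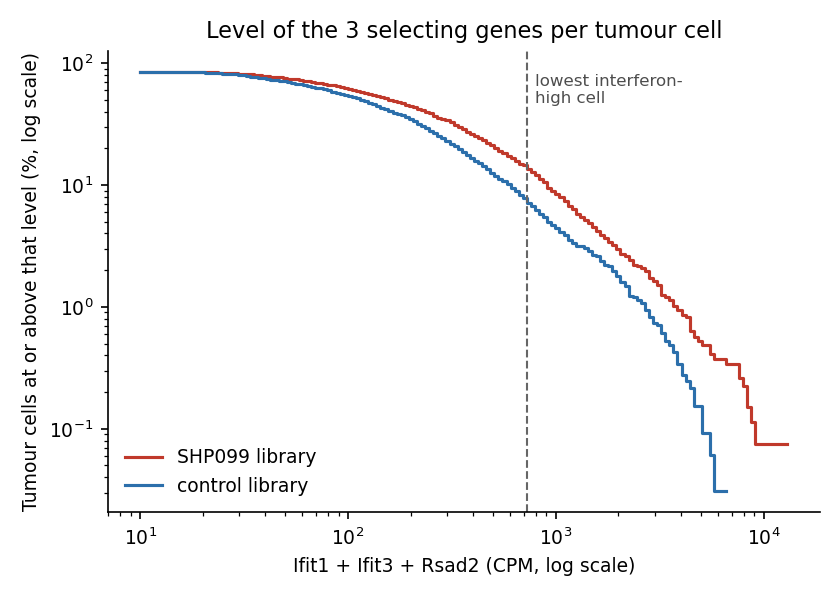
Share of tumour cells in each library (vertical axis, percent on a log scale) at or above a given level of Ifit1, Ifit3 and Rsad2 together (horizontal axis, CPM on a log scale), red for SHP099 and blue for control. The dashed line is the lowest interferon-high cell, and the SHP099 curve lies above the control curve there, at 13.5% against 7.17%.

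The rule for tumour cells asked for MC38 genes and set limits on leukocyte, myeloid and endothelial genes, so their levels are a description. The list of MC38 markers summed to 350 CPM in interferon-high cells against 412 CPM in other tumour cells of the SHP099 library, and 408 against 468 CPM in the control library. The keratin genes Krt8 and Krt18 and the epithelial adhesion gene Epcam, which a carcinoma might carry, were rare in all tumour cells. Each was found in 1 interferon-high cell of the SHP099 library and in no interferon-high cell of the control library. Of the other tumour cells, Krt8 was in 1 SHP099 and 10 control cells, Krt18 in 0 and 3, and Epcam in 0 and 1. Macrophage or monocyte markers summed to 480 CPM against 352 CPM and to 357 against 299 CPM in the same order, with positive log2 ratios in both libraries for 9 of 10 measured genes, of which Plac8 alone was past 1.5-fold in both. In mononuclear phagocytes of the same tumours (barcodes with Ptprc, more than 5 UMIs of Tyrobp and none of the MC38 genes) that list summed to 63209 CPM in the SHP099 library and 63046 CPM in the control library. Dendritic cell markers were at 0 CPM in the interferon-high cells of both libraries, and T or NK cell markers at 4.96 CPM in the SHP099 and 7.12 CPM in the control library. Fibroblast markers summed to 1860 CPM against 1171 CPM in the SHP099 library and 1537 against 1087 CPM in the control library, most of it Dcn. The part of these markers in the results below was not tested.

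Depth and RNA make-up differed between the groups. The median depth was 19075 UMIs in interferon-high cells against 24001 UMIs in other tumour cells of the SHP099 library, and 19141.5 against 26853 UMIs in the control library. Mitochondrial UMIs made up a median of 4.08% against 3.22% and 3.76% against 2.88%. The nuclear RNA Malat1 took a median of 27020 against 18796 CPM in the SHP099 library and 23933 against 14480 CPM in the control library. Of barcodes, 100 occurred in both libraries, 8 of them tumour cells and none interferon-high.

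Interferon-stimulated genes that the selection did not use were the main feature of these cells in both libraries. A gene was called higher or lower where the CPM of interferon-high over other tumour cells was past 1.5-fold in the SHP099 library and again in the control library, with 0.5 CPM added to each side. Of 8578 genes at 5 CPM or more over all tumour cells, 233 were called higher, which is 2.72%, and 36 lower, which is 0.42%. Of the 233, 81 were past 2-fold in both libraries, and 68 were on the lists of type I interferon-stimulated, interferon-gamma-responsive or MHC class I genes. The median gene had a log2 ratio of -0.04 in the SHP099 library and -0.02 in the control library. When the other tumour cells were weighted to the depth of the interferon-high cells, 142 genes were called higher, all among the 233, and 12 lower.

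**Figure D2:**
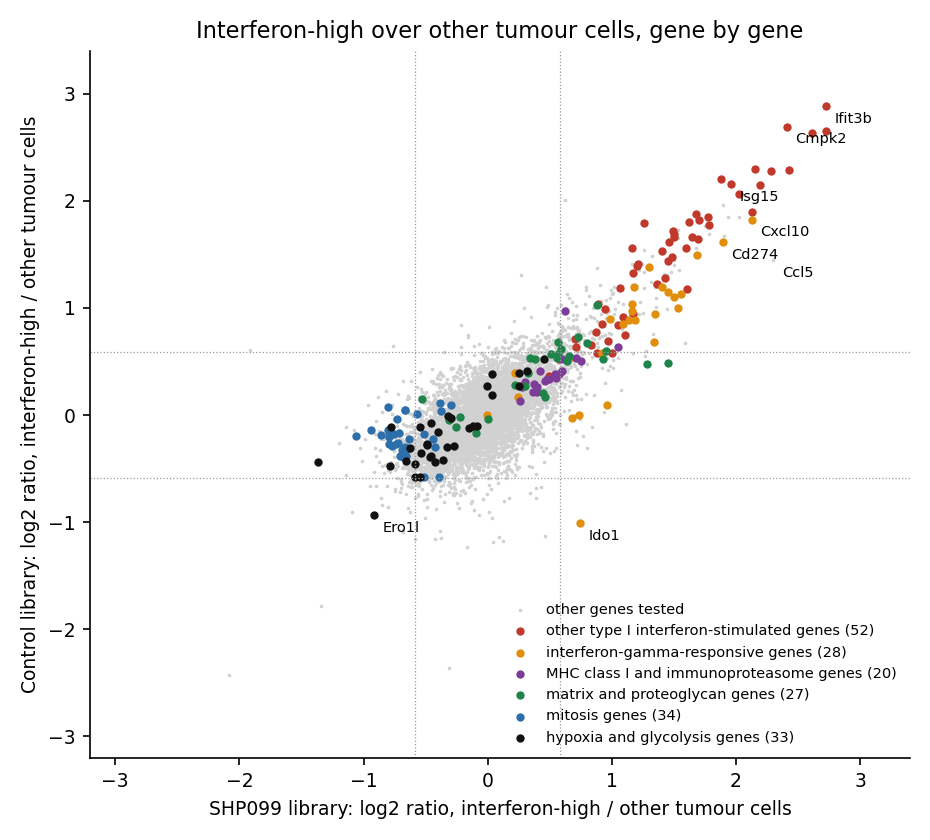
Each point is a gene, placed by its log2 ratio of interferon-high over other tumour cells in the SHP099 library (horizontal) and in the control library (vertical), with coloured points for 6 gene lists and dotted lines at 1.5-fold. The 52 other type I interferon-stimulated genes lie above 0 in both libraries, 3 genes lie beyond the axes, and Ido1 stands above 0 in the SHP099 and below 0 in the control library.

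Of the type I interferon-stimulated genes other than the selecting ones, 48 of 52 measured were called higher and none lower, against 2.72% of all genes. Their median log2 ratio was 1.46 in the SHP099 library and 1.54 in the control library. Ifit3b, a near copy of Ifit3, had 99.3 CPM in interferon-high cells against 14.6 CPM in other tumour cells of the SHP099 library, a log2 ratio of 2.73 with a counting interval of 2.62 to 2.91. In the control library it had 78.1 against 10.1 CPM, a log2 ratio of 2.88 (2.77 to 3.12). Reads of such close copies may be shared between them, which also holds for the Ifi200, Oas, Slfn, Gbp, Tgtp and H2 families.

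Cmpk2, a nucleotide kinase whose gene lies beside Rsad2, had 115 against 21.1 CPM in the SHP099 library and 120.2 against 18.2 CPM in the control library, log2 ratios of 2.41 and 2.69. Isg15 had 566 against 145 CPM and 733 against 164 CPM, log2 ratios of 1.96 (1.91 to 2.02) and 2.15 (2.10 to 2.21). Both ratios were larger in the control library, with counting intervals that did not overlap (for Cmpk2 2.31 to 2.57 in SHP099 and 2.59 to 2.86 in control). Oasl1, an OAS-like protein that restrains Irf7 translation, had 34.3 against 5.18 CPM and 27.7 against 4.05 CPM. Ifi44 had 172 against 38.5 CPM and 151 against 30.3 CPM. Ifit2, another RNA-binding IFIT protein, had 34.3 against 5.95 CPM and 32.3 against 6.24 CPM. The log2 ratios of these 3 genes ran between 2.15 and 2.63.

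The Ifi200 genes, whose proteins bind DNA, and the Schlafen genes were in the same range. Ifi207 stood at 25.6 against 3.46 CPM in the SHP099 library and 27.9 against 4.03 CPM in the control library, log2 ratios of 2.72 and 2.65. Ifi203 stood at 139 against 30.0 CPM and 114 against 25.3 CPM. Ifi204 and Ifi205 had log2 ratios of 2.28 and 1.94 in the SHP099 library and 2.28 and 1.85 in the control library. Slfn8 had 1.88 and 2.20, and Slfn2, which limits proliferation of immune cells, had 2.02 and 1.85, on the same log2 scale. All of these were called higher.

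Regulators of the interferon response were higher as well. Usp18, the protease that takes ISG15 off its targets and damps receptor signalling, had 92.0 against 22.3 CPM and 84.4 against 19.8 CPM, log2 ratios of 2.02 (1.91 to 2.18) in the SHP099 and 2.07 (1.94 to 2.25) in the control library. Irf7, the factor that amplifies type I interferon production, had 253 against 78.0 CPM and 189 against 60.3 CPM. Of the genes for this response complex, Stat2 had log2 ratios of 1.46 and 1.62 and Irf9 of 0.87 and 0.78. Among the RNA sensors, Dhx58 had 2.13 and 1.89, Ifih1, which encodes MDA5, had 1.79 and 1.77, and Ddx58, which encodes RIG-I, had 0.89 and 1.03. Zbp1, a sensor of Z-form nucleic acids that can start cell death, was called higher at 0.71 and 0.63. Among the listed genes not called were the membrane tether Bst2 (0.88 and 0.58), Parp12 (0.57 and 0.52) and Nmi (0.50 and 0.36), all above 0 in both libraries.

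The cells differed among themselves in this programme, and the selection by 3 genes captured only part of its upper end. Summed over the listed genes, the level per cell ran from 4877 CPM at the 10th percentile, over a median of 8039, to 14464 at the 90th in SHP099 interferon-high cells, against 1374, 3151 and 6672 in other tumour cells of that library. In the control library it ran from 4342 over 7573 to 13019 in interferon-high cells, against 1510, 3136 and 6135 in other cells. Of the interferon-high cells, 66.5% in the SHP099 library and 65.8% in the control library lay above the 90th percentile of the other cells, and 98.3% and 98.7% above their median. When cells were ranked on the listed genes in place of the selecting ones, 307 of the top 592 (51.9%) were the same cells. Isg15 had a median of 487 CPM per cell in SHP099 interferon-high cells, with 169 at the 10th and 1198 at the 90th percentile, against a median of 94.8 in other cells, and 631 in control interferon-high cells, with 209 and 1557, against 111.

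Genes that respond to interferon-gamma were higher in large part. Of 28 measured, 18 were called higher and none lower, with a median log2 ratio of 1.17 in the SHP099 library and 0.89 in the control library. Cxcl10 had 1926 against 439.8 CPM and 1896 against 535 CPM, log2 ratios of 2.13 (2.10 to 2.16) and 1.82 (1.79 to 1.86), and answers to both kinds of interferon. Cd274, which encodes the checkpoint ligand PD-L1, had 72.8 against 19.2 CPM and 95.8 against 31.0 CPM, log2 ratios of 1.90 and 1.61. Its highest level was in the control interferon-high cells. Cxcl9, a chemokine induced mainly by interferon-gamma, had 87.8 against 38.6 CPM and 102 against 44.0 CPM. Its log2 ratios of 1.18 and 1.20 were smaller than those of Cxcl10.

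Guanylate-binding proteins and immunity-related GTPases, which attack the vacuoles of parasites, formed most of the rest. Gbp5 had 14.7 against 4.22 CPM and 15.9 against 5.30 CPM, and Gbp6 had log2 ratios of 1.30 and 1.38. Gbp2, the most abundant of them, stood at 470.4 against 248 CPM and 546 against 365 CPM and was not called, with 0.92 and 0.58. Irf1, the factor that interferon-gamma induces first, was not called either, at 0.67 and 0.54. Of the MHC class II genes, H2-Aa had 25.5 against 15.7 CPM and 15.7 against 15.96 CPM, and Cd74, the invariant chain, 52.0 against 31.0 CPM and 30.7 against 30.7 CPM. Ciita, the factor these genes need, had no UMI in interferon-high cells of either library (11 and 6 UMIs in other cells). Cd74 is also a macrophage gene, at 11998 CPM in the phagocytes of the SHP099 library and 12761 CPM in those of the control library. Ido1, a tryptophan-degrading enzyme, had 5.10 against 2.84 CPM in the SHP099 library and 3.66 against 7.89 CPM in the control library, with log2 ratios of 0.74 (0.28 to 1.37) and -1.01 (-1.87 to -0.44) on opposite sides of 0.

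MHC class I genes and the immunoproteasome differed by less, but all in the same direction. All 20 measured genes had positive log2 ratios in both libraries, with medians of 0.49 in the SHP099 library and 0.34 in the control library, and 2 were called higher. These were the nonclassical gene H2-T23, at 94.9 against 45.6 CPM and 72.8 against 46.8 CPM, and Nlrc5, the activator of class I genes, at 18.7 against 12.0 CPM and 27.3 against 13.7 CPM. H2-K1, a classical heavy chain, had 1039 against 739.5 CPM and 1017 against 807 CPM. B2m, the light chain, had 5788 against 4791 CPM and 6385 against 5335 CPM, log2 ratios of 0.27 and 0.26. The peptide transporter Tap1 had 0.75 and 0.51, and the immunoproteasome subunits Psmb8 and Psmb9 0.37 and 0.40 in the SHP099 library and 0.21 and 0.21 in the control library.

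**Figure D3:**
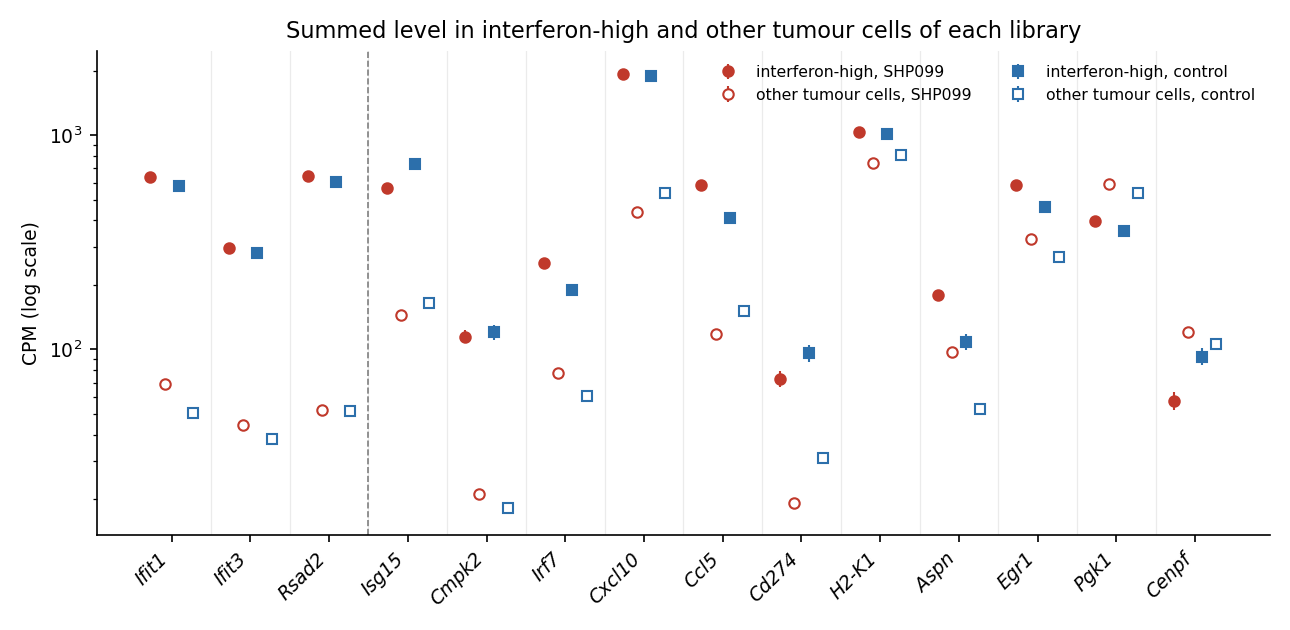
Summed level (CPM, log scale) of 14 genes in interferon-high cells (filled) and other tumour cells (open) of the SHP099 library (red circles) and the control library (blue squares), with bars for exact Poisson 95% intervals, many of them smaller than the symbols. The dashed line sets apart the 3 selecting genes, and filled symbols lie above open ones of the same library for all genes except Pgk1 and Cenpf.

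Interferon transcripts themselves were nearly absent. Ifnb1 had 6 UMIs in 4 of the SHP099 interferon-high cells and 1 UMI in the control ones, against 2 UMIs in other SHP099 tumour cells and 0 in other control tumour cells. Ifna1, Ifna2, Ifna4, Ifna5, Ifne, Ifnk, Ifnl2 and Ifnl3 had no UMI in any tumour cell, where 3 counts would be 0.425 CPM in the SHP099 and 0.610 CPM in the control interferon-high cells. Ifng had no UMI in interferon-high cells, with 3 and 2 UMIs in the other tumour cells of the SHP099 and control libraries. Phagocytes had Ifnb1 at 0.598 CPM in the SHP099 library and 0.518 CPM in the control library.

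As a list, receptors and kinases of the pathway differed little. Of 16 measured genes of the list of interferons, receptors and JAK-STAT factors 1 was called higher, Socs1, the feedback inhibitor of JAK kinases, at 64.4 against 32.4 CPM and 76.7 against 41.0 CPM, and the medians were 0.16 and 0.07. Stat2 and Irf9, called higher above, are not among the 16. Ifnar1 had 16.6 against 17.1 CPM in the SHP099 library and 16.9 against 12.6 CPM in the control library, and Ifnar2 42.5 against 33.6 CPM and 37.2 against 35.4 CPM. Of the interferon-gamma receptor genes, Ifngr1 was higher in both libraries, with log2 ratios of 0.40 (0.27 to 0.53) and 0.32 (0.15 to 0.50). Ifngr2 had -0.002 and -0.015. Ptpn11, the gene of the drug's target, had 56.9 against 58.2 CPM and 56.8 against 54.2 CPM, with counting intervals of the log2 ratio that held 0 in both libraries. Its transcript level does not report the activity of the inhibited protein. Of 19 nucleic acid sensing genes 5 were called higher and none lower. These were Ifi205 (1.94 and 1.85), Tlr3, a receptor for double-stranded RNA (1.26 and 1.54), the RNA editing enzyme gene Adar (1.22 and 1.05), Samhd1, which degrades nucleotides (1.03 and 0.99), and Tmem173, which encodes STING (0.73 and 0.60). Mb21d1, which encodes the DNA sensor cGAS, was not called, at 18.5 against 15.96 CPM and 19.7 against 16.03 CPM.

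Promoter windows of the genes called higher held the response element core more often than those of all genes tested. RefSeq windows of 300 bases, 250 before to 50 after the start, were found for 171 of the 233 genes called higher, some with several starts. GAAANNGAAA on either strand was in 50 of their 221 windows (22.6%), in 32 of 75 windows (42.7%) of the genes past 2-fold in both libraries, and in 2 of 38 windows (5.26%) of the genes called lower, against 279 of 8658 windows (3.22%) of all genes tested and 3.44% of all 32851 windows in the table. Of the type I list 19 of 51 windows (37.3%) held it, and of the interferon-gamma-responsive list 10 of 18 (55.6%). TTCNNNGAA, the core of the gamma-activated element, was in 9 of 18 windows (50%) of the interferon-gamma-responsive genes and in 6 of 51 (11.8%) of the type I list, against 551 of 8658 (6.36%) of all genes tested. It was in 26 of 221 windows (11.8%) of the genes called higher and in 0 of 38 windows of the genes called lower. The windows of Cmpk2, Oasl1, Ifi44, Ifit2, Slfn2, Cxcl9 and Cd274 did not hold the letters GAAANNGAAA.

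Chemokine and cytokine genes pointed the same way. All 12 measured had positive log2 ratios in both libraries, with a median of 0.44 in each, and 3 were called higher. Ccl5, which draws T cells, had 583 against 118 CPM and 410.3 against 150.3 CPM, log2 ratios of 2.30 (2.25 to 2.36) and 1.45 (1.38 to 1.52). It was uneven, with a median of 32.8 CPM per cell and a 90th percentile of 1890 in SHP099 interferon-high cells, against 0 and 182 in other SHP099 tumour cells, and 34.8 and 1166 in control interferon-high cells, against 0 and 270 in other control tumour cells. In phagocytes Ccl5 stood at 708 CPM in the SHP099 library and 1364 CPM in the control library. Il15, which sustains NK and memory T cells, had 64.8 against 21.9 CPM and 73.4 against 28.5 CPM. Il11, a cytokine of the IL-6 family, had 11.3 against 7.34 CPM and 18.7 against 8.96 CPM.

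Matrix genes and immediate-early genes were higher to a smaller degree. Of 27 matrix and proteoglycan genes 5 were called higher and none lower, with medians of 0.51 and 0.50 in the SHP099 and control libraries. They were the small leucine-rich proteoglycans Aspn, at 179.5 against 97.1 CPM and 108 against 52.7 CPM, and Ogn, at 276 against 167 CPM and 187 against 112 CPM, the collagens Col3a1 and Col5a2, and Postn. Col3a1 had 2348 against 1564 CPM and 2157 against 1404 CPM. Against other tumour cells weighted to the same depth, the median of the matrix list over both libraries was 0.23 in place of 0.54, and against cells weighted to the same Malat1 share it was 0.25. Of the fibroblast marker Col1a1, a collagen gene, 1 SHP099 cell held 26.97% and 1 control cell 57.4% of the UMIs of the interferon-high cells. Of 29 immediate-early and dissociation-stress genes 9 were called higher, against 2.72% of all genes tested, with medians of 0.54 and 0.47. The weighting by depth or Malat1 share was not read out for this list. Among the 9 were Egr1, at 584 against 327 CPM and 462 against 269 CPM, and the nuclear receptor Nr4a3, at 67.1 against 33.1 CPM and 52.7 against 23.6 CPM. Such genes respond to ERK signalling and also to dissociation. The ERK feedback gene Spry2 was called higher, at 0.82 and 0.68, alone among 14 ERK genes, while Dusp6 stood at 0.06 and 0.41.

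Genes of mitosis, DNA replication and glycolysis leaned lower. Of 34 mitosis genes none was called, 27 had negative log2 ratios in both libraries, and the medians were -0.69 in the SHP099 library and -0.20 in the control library. Mki67 had 29.7 against 51.9 CPM and 43.1 against 49.7 CPM. The level per cell of the mitosis list had a median of 300 CPM in SHP099 interferon-high cells against 502 in other SHP099 tumour cells, and 481 in control interferon-high cells against 911 in other control tumour cells. The 90th percentiles were 4271 against 5592 and 5230 against 5459, so strongly mitotic cells were present in both groups. Against other tumour cells weighted to the same depth, the median over both libraries was -0.16 in place of -0.48. Of 38 replication genes 34 had negative ratios in both libraries and 2 were called lower, Rrm2, a subunit of ribonucleotide reductase, at 38.2 against 64.4 CPM and 46.0 against 75.3 CPM, and Ccne2, while Ccne1 was called higher.

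Of 33 hypoxia and glycolysis genes 1 was called lower and 26 had negative ratios in both libraries, with medians of -0.42 and -0.27. The one called was Ero1l, an oxidase of the endoplasmic reticulum that hypoxia induces, at 62.9 against 119 CPM and 37.4 against 71.9 CPM, log2 ratios of -0.91 (-1.06 to -0.78) and -0.93 (-1.16 to -0.73). The glycolytic enzyme gene Pgk1 had 397 against 594 CPM and 359 against 536 CPM, and Ldha -0.55 and -0.58 on the log2 scale, both a little short of 1.5-fold. This list kept its level under the weighting by depth, at -0.34 against -0.33 over both libraries. The 36 genes called lower also held Tnnt2, which encodes cardiac troponin T (-1.09 and -0.91) and the chromatin protein gene Hmgb3 (-0.95 and -0.66). Further from 0 were Ptcra, the pre-T-cell receptor gene (-2.08 and -2.43), and Enah (-1.35 and -1.78), and 3 haemoglobin genes, of whose UMIs in other tumour cells 1 cell per library held at least 82.98%. Ptcra and Enah rest on few UMIs in interferon-high cells, 11 and 4 for Ptcra and 76 and 26 for Enah (SHP099 and control). Of these, 1 cell held 45.5% of the SHP099 Ptcra UMIs, and 1 cell per library 35.5% and 34.6% of the Enah UMIs. The mitochondrial chaperone gene Hspd1 was not called, at 206 against 307 CPM and 209 against 321 CPM. The integrated stress response list held 1 gene called higher and 1 called lower of 25. The p53 list held 1 higher of 19 and the cell death list 2 higher of 25. Of all genes 2.72% were called higher and 0.42% lower, and counts this small are not enough to set a list apart from those shares.

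The lists changed by degrees with the level of the selecting genes among cells below the limit. Tumour cells of each library were placed in 9 bins from no selecting UMI up to the top. The top bin, of 380 SHP099 and 247 control cells, took in all interferon-high cells, so no step between bins lay above the limit. Within interferon-high cells the Spearman correlation with the selecting level was 0.30 and 0.48 (SHP099 and control) for the type I list. It was 0.52 and 0.48 for the interferon-gamma list, 0.03 and 0.17 for the matrix list, and 0.04 and -0.04 for the mitosis list. In the SHP099 library the median level per cell of the type I list was 1759 CPM in the cells with none, 3308 in the middle bin and 7893 in the top one, and in the control library 1997, 3568 and 7491. The interferon-gamma list stood at 720, 1333 and 3911 CPM in the SHP099 library and 967, 1935 and 4175 in the control library. The matrix list stood at 3933, 5129 and 7825 in the SHP099 library and 3341, 5332 and 7580 in the control library. The mitosis list was highest in the second bin, at 2522 in the SHP099 and 2068 in the control library, whose cells were also the deepest, with medians of 30864 and 32065 UMIs, and it was 302 and 455 in the top bin.

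**Figure D4:**
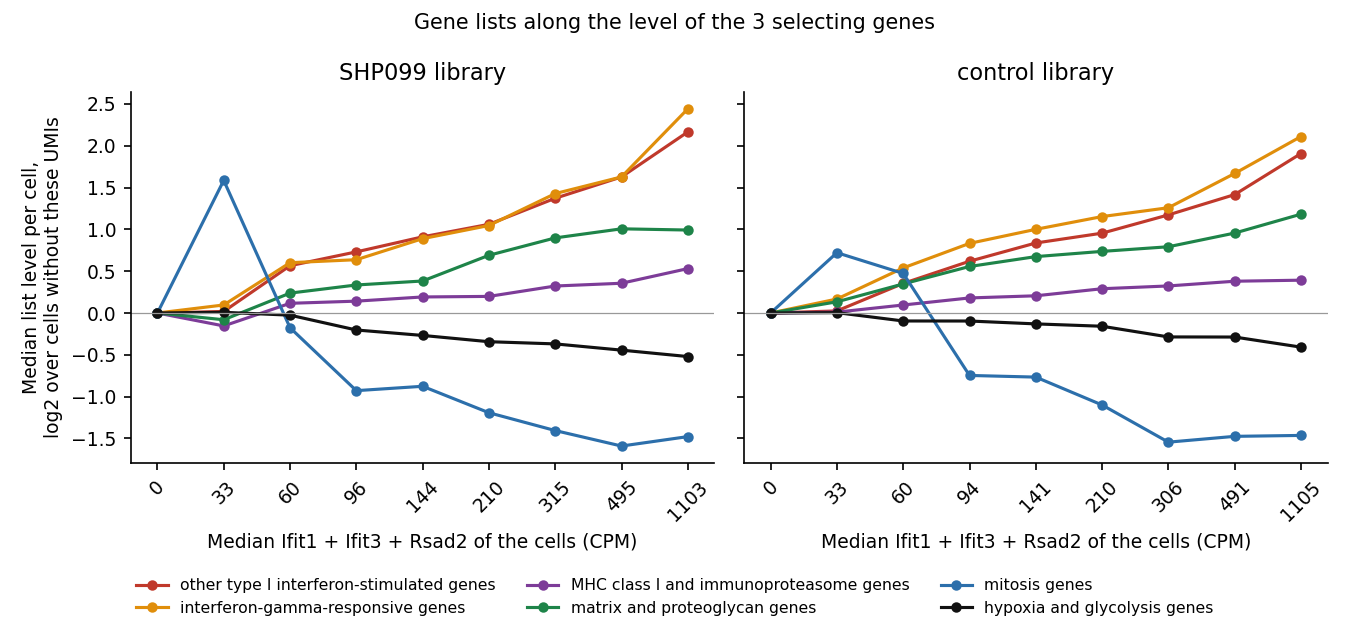
Median level per cell of 6 gene lists (vertical axis, log2 over the cells of that library with no selecting UMI) in 9 bins of tumour cells ordered by the level of Ifit1, Ifit3 and Rsad2 (horizontal axis, median of each bin in CPM), SHP099 at left and control at right. The type I and interferon-gamma lists climb from bin to bin, and the mitosis line peaks in the second bin, where cells were deepest.

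Between SHP099 and control interferon-high cells, mitosis genes were lower in SHP099, and no listed type I interferon-stimulated gene was past 1.5-fold. Over the same 8578 genes, 245 (2.86%) were at least 1.5-fold higher in SHP099 than in control interferon-high cells and 155 (1.81%) lower, against 40 (0.466%) and 28 (0.326%) between the other tumour cells of the libraries, which are far more numerous and deeper in sum. With 5 CPM added in place of 0.5, the counts in interferon-high cells were 62 and 52. The type I list had 0 of 52 genes past 1.5-fold in either direction, and its median log2 ratio of SHP099 over control was 0.12 in interferon-high cells and 0.15 in other tumour cells, where the median of all genes was 0.01 and 0.04. The interferon-gamma list had medians of -0.10 and -0.31, and the MHC class I list -0.01 and -0.18. Of 34 mitosis genes 13 were past 1.5-fold lower in SHP099 interferon-high cells and none higher, with a median of -0.47 there and 0.01 in other tumour cells. These ratios are of UMIs summed over cells. The median level per cell of the list was lower in SHP099 in both groups. It was 300 against 481 CPM in interferon-high cells and 502 against 911 CPM in the others. The contrast between the groups of cells was thus seen in the sums and not in these medians. Cenpf, a kinetochore protein gene, had 57.5 CPM in SHP099 against 92.6 CPM in control interferon-high cells, and 121 against 106 CPM in the other tumour cells. Ube2c, an enzyme that helps to end mitosis, had 109.7 against 201 CPM in interferon-high cells and 191 against 229.9 CPM in the others. The mitosis median of interferon-high cells was -0.20 when only 5% of tumour cells were taken.

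**Figure D5:**
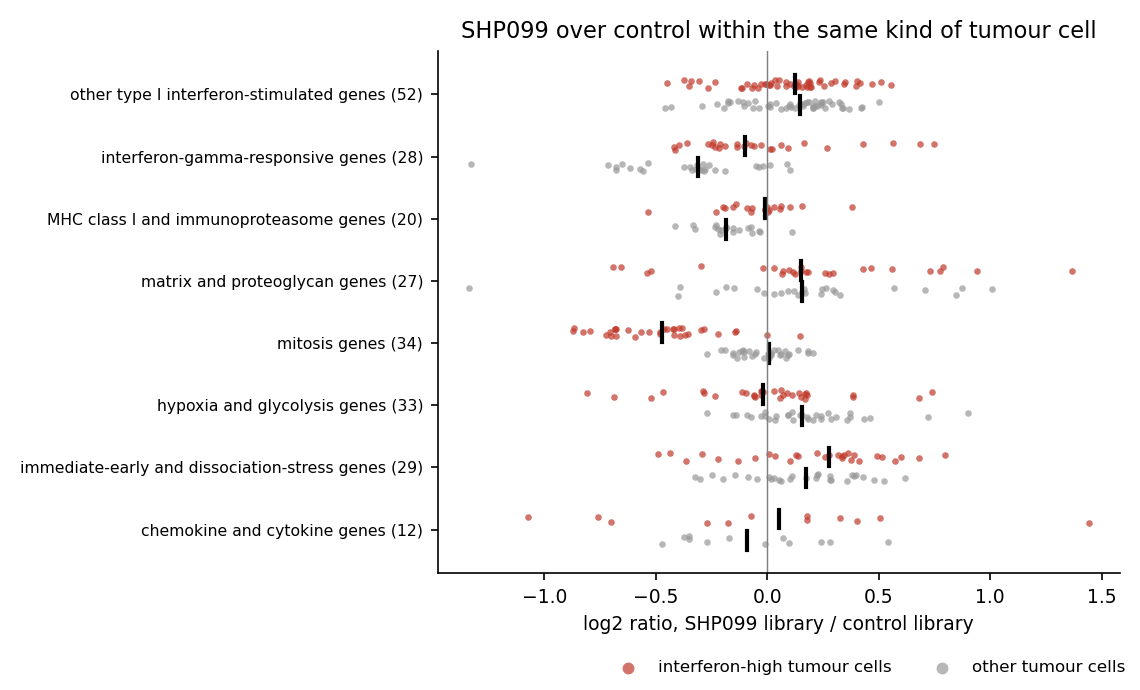
Log2 ratio of the SHP099 over the control library (horizontal axis) for each measured gene of 8 lists, with interferon-high tumour cells in red above other tumour cells in grey, and black bars for medians. In UMIs summed over cells, the mitosis genes centre on -0.47 in interferon-high cells and 0.01 in the others, and the type I interferon-stimulated genes on 0.12 and 0.15.

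The single genes furthest apart between SHP099 and control interferon-high cells were mostly apart in the other tumour cells too. Postn, which encodes the matrix protein periostin, had 110.0 CPM in SHP099 against 42.3 CPM in control interferon-high cells, a log2 ratio of 1.37 (1.16 to 1.61), and 56.5 against 27.9 CPM in the others, a log2 ratio of 1.01. Its ratio in interferon-high cells was 0.68 among tumour cells without a UMI of Tyrobp or Pecam1. Angptl4, a lipase inhibitor, had 31.3 against 13.2 CPM and 31.5 against 19.6 CPM, log2 ratios of 1.21 and 0.67. Gas1 had 1.03 and 0.81 on the log2 scale. Lower in SHP099 were Nppb, which encodes a natriuretic peptide, with log2 ratios of -1.16 and -0.71, and the tubulin gene Tubb3, with -0.97 and -0.52. The chemokine gene Cxcl2 had 17.4 against 37.2 CPM in interferon-high cells, where 1 control cell held 29.5% of its UMIs. Crip1 had 12.6 against 30.3 CPM, with 72.5% of the control UMIs in 1 cell, and its ratio turned to 0.27 without the cells that hold Xist. Ptn, a heparin-binding growth factor gene, had 35.0 against 69.8 CPM in interferon-high cells and 22.5 against 16.96 CPM in the others, and its ratio in interferon-high cells turned to 0.76 when only 5% of tumour cells were taken.

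Phagocytes of the same tumours were ranked on the same 3 genes. Their top 10%, 181 of 1290 in the SHP099 library and 63 of 1151 in the control library, had a median log2 ratio over the other phagocytes of 1.21 in the SHP099 and 1.48 in the control library for the type I list. The matrix list, over the 19 genes measured in both kinds of cell, had -0.25 and 1.15, and the mitosis list, over 33 such genes, -0.21 and 0.22. Over the same genes the interferon-high tumour cells had 0.51 and 0.52 for matrix and -0.69 and -0.20 for mitosis. The control values of the phagocytes rest on only 63 cells in the top group, and the difference between the kinds of cell was not tested. Over the whole phagocyte group Rsad2 stood at 192 CPM in the SHP099 library and 109 CPM in the control library, above its level in the other tumour cells.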

How the data were processed

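Droplet 3′ RNA-seq of MC38 tumours was read from the UMI counts per gene and barcode that the authors deposited, 1 matrix for SHP099 and 1 for control. Reads were 150 bases, per the labels' protocols; Cell Ranger and mm10 (GRCm38) are named in the submitters' processing notes, and 3.1.0 is the software version in the matrix headers. Both matrices list the same 31053 features. They held 8263 barcodes and 112901642 UMIs for SHP099 and 8245 barcodes and 126218180 UMIs for control. Tumour cells and interferon-high cells were taken by the limits given with the results. UMIs were summed over the cells of each group and expressed as CPM. Ratios used a prior of 0.5 CPM and genes at 5 CPM or more over all tumour cells. With 1 library per group no test was run. The 95% intervals are exact Poisson or binomial and cover counting error only; those of log2 ratios leave out the prior. Scrublet in scanpy 1.11.5 called 198 (2.51%) SHP099 and 264 (3.32%) control barcodes doublets, 3 and 1 of them interferon-high; these were kept, and leaving them out was an alternative. Named genes were the 15 highest and 15 lowest with the same sign in both libraries, called or not, at 20 CPM or more in the higher group, the 8 highest and 8 lowest of SHP099 over control, the 4 at either end of each list, and a panel of interferon, marker and drug target genes. Not all of them are described, and any other gene named was chosen after its values were seen. The rule for the cells and the gene lists were chosen with earlier results of these data known. Results for some genes are not reported here. The calling script was checked on simulated counts, which gives no error rate for these libraries. Python 3.11.15, numpy 2.4.6, pandas 2.3.3, scipy 1.17.1 and matplotlib 3.10.9 were used.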

Additional observations from a re-analysis of the deposited data

Results flagged for a closer look

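Of 424 genes looked at, 16 had log2 ratios on opposite sides of 0 in the settings compared, each with a counting interval that left out 0. The difference itself was not tested for any of them, and each value rests on 1 library per group.

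For all of these except Ido1 the ratio of SHP099 over control changed sides between interferon-high cells and other tumour cells. Among them, in UMIs summed over cells, were 4 of 34 mitosis genes. They were lower in SHP099 interferon-high cells and higher in the other tumour cells of SHP099. In those other cells the median ratio of all 34 was 0.01, while the list had a median per cell of 502 CPM in SHP099 and 911 CPM in control. The 4 genes were Cenpf at -0.68 and 0.18, Aurka, a spindle kinase gene, at -0.42 and 0.14, Nusap1 at -0.40 and 0.18, and Top2a, which encodes a topoisomerase, at -0.22 and 0.0994. Several interferon-responsive genes went the other way. The GTPase gene Tgtp2 stood at 0.27 in interferon-high cells and -0.26 in the others, the protease inhibitor gene Serpina3g at 0.56 and -0.31, the class I heavy chain gene H2-D1 at 0.0618 and -0.0717, and Ccl5 at 0.51 and -0.35. Oas2, an activator of RNase L, stood at -0.31 and 0.22.

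Other genes of this kind were Igfbp4 at 0.85 in interferon-high cells and -0.11 in the others (0.0362 in interferon-high cells ranked on the other interferon-stimulated genes, 0.32 with each cell counted alike and 0.37 with 20% of tumour cells), Ptn at -0.99 and 0.40, Col1a1 at 0.78 and -0.18, the replication factor gene Rfc4 at 0.56 and -0.15, Hspa8 at 0.22 and -0.046, and Higd1a at -0.11 and 0.095. In control interferon-high cells the highest cell for each gene held 30.6% of the Igfbp4 UMIs, 26.5% of the Ptn UMIs and 57.4% of the Col1a1 UMIs.

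Ido1 had a log2 ratio of interferon-high over other tumour cells of 0.74 in the SHP099 library and -1.01 in the control library.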

How the results depend on the processing

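No paired analysis was possible because each group had 1 library, and for the same reason none could be left out in turn. Of 18 alternatives, 4 were chosen after seeing the data (leaving out cells with Xist, and weighting other cells to the mitochondrial share, mitosis level or Malat1 share of interferon-high cells). Among 11 main results, none of the list medians changed sign. The gene counts and the share ratio could only be marked as kept or moved, so no change of direction could be found for them. Over all 11, 126 values stayed within their limits and 49 moved. Main counts were 233 higher and 36 lower against other tumour cells, and 245 and 155 for SHP099 over control. With 5% of tumour cells there were 122 lower, and 555 and 320 for SHP099 over control; with 20%, 111 and 81, and a type I list median of 1.31. With 10% taken within each library the share ratio was 1.00 by construction. A higher minimum of UMIs per cell gave 22 lower; no Tyrobp or Pecam1 UMI gave 383 and 317 for SHP099 over control. Ranking on the other interferon-stimulated genes gave 494 higher and 326 lower and medians of 1.24 for interferon-gamma, 0.71 for MHC class I, -0.76 for mitosis and 0.97 for matrix genes. Counting each cell alike gave 74 lower. Weighting to depth gave 142 higher, 12 lower and medians of 1.30 for type I, 0.87 for interferon-gamma, -0.16 for mitosis and 0.23 for matrix genes; to mitochondrial share 19 lower, 1.315 for type I and 0.32 for matrix; to mitosis level 21 lower and -0.0914 for mitosis; to Malat1 142 higher, 15 lower, 1.30 for type I, 0.84 for interferon-gamma and 0.25 for matrix. Genes at 1 CPM or more gave 62 lower, 656 and 389; at 20 CPM or more 130 higher, 9 lower, 34 and 44, and 1.31 for type I. A prior of 5 CPM gave 10 lower, 62 and 52, and 1.33 for type I. A limit of 2-fold gave 81, 5, 31 and 13. Of single genes and lists for SHP099 over control in interferon-high cells, Crip1 turned to 0.00721 after thinning, 0.0747 with 5% of cells and 0.27 without Xist cells, Ptn to 0.76 with 5%, and the interferon-gamma list to 0.0271 with 10% within each library; the cause was not tested.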

Other observations

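Of the 233 genes called higher in interferon-high cells, 165 were on none of the interferon or MHC class I lists. The following were chosen after their values were seen. Several are relatives of listed interferon-stimulated genes. Mndal, of the Ifi200 family, had 165 CPM in interferon-high against 43.7 CPM in other tumour cells of the SHP099 library, and 131 against 40.9 CPM in the control library. Daxx, a chaperone found in nuclear bodies, had log2 ratios of 1.32 and 1.49, and Pml, which builds those bodies, 0.88 and 1.37. Ifitm3, which hinders the entry of viruses, had 2125 against 1136 CPM and 2069 against 1246 CPM. Il18bp, a secreted inhibitor of IL-18, had log2 ratios of 1.09 and 1.03.

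Others are not known mainly as interferon targets. Fam46a had 158 against 65.8 CPM in the SHP099 library and 154 against 60.7 CPM in the control library. H19, an imprinted long noncoding RNA, had 308 against 154 CPM and 325 against 148 CPM. Apod, a lipid carrier gene, had log2 ratios of 0.92 and 1.06, and Osmr, a receptor gene for oncostatin M, 1.05 in both libraries. Ptgs2, which encodes the prostaglandin enzyme COX-2, had 0.65 and 0.76.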
